A study of Mus musculus with 12 samples.

Results

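The complement genes described here are 35 components and regulators of the complement system, chosen by name, among the 23849 gene symbols of the liver FPKM table. Of these, 34 had a row under the listed symbol and C1s had one under C1s1, its mouse name in RefSeq. Liver RNA-seq was available from 12 male C57BL/6J mice in 4 groups of 3. The submitters give the age of the mice as 8 weeks. Every mouse received HFD, a high-fat diet, over 6 weeks, so no normal diet group enters any comparison here. During the last 2 weeks they received, by oral gavage once a day at ZT11, either vehicle, which was drinking water, or Policaptil Gel Retard, a gel-forming fiber product that the sample labels call Libramed. Livers were collected at ZT0, lights on and the end of the active phase, or at ZT12, lights off and the start of feeding. The 4 groups are thus vehicle at ZT0, vehicle at ZT12, Policaptil Gel Retard at ZT0 and Policaptil Gel Retard at ZT12. FPKM are read counts scaled to gene length and to mapped reads, so the levels given are relative. The FPKM of a library summed to between 6.35e+05 and 7.59e+05, a 1.20-fold range.

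Complement is a cascade of plasma proteases and pore-forming proteins that marks and lyses microbes and damaged cells. The classical pathway starts when C1q binds antibody on a surface and its partner proteases C1r and C1s cut C4 and C2. The lectin pathway does the same with mannose-binding lectins, ficolins or collectins and the MASP proteases. The alternative pathway amplifies the signal through C3, factor B, factor D and properdin, and all routes end in the C5 to C9 membrane attack complex. Hepatocytes secrete most of these proteins into plasma, while C1q, properdin and ficolin A come from macrophages, in the liver the Kupffer cells, and factor D (adipsin) is known mainly as a product of fat cells. By this general knowledge 22 genes were classed as hepatocyte-made, 7 as macrophage-made and 6 as other.

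Promoter windows from RefSeq (GRCm38.p6, from 250 bases before to 50 bases after each start) were available for 26 of the 35 genes. Each window was searched on both strands for CACGTG (E-box), TTATGTAA (D-box), TTCNNNGAA (STAT), TTGCNNAA (C/EBP) and GAGGAA (PU.1). GAGGAA can lie inside TTCNNNGAA, and the other motifs were counted separately wherever they met. Some genes had more than 1 window. The shares below count windows, and the complement counts are of genes with a match in any of their windows. GAGGAA, the core bound by the macrophage factor PU.1, stood in 28.3% of all 32851 windows. It stood in 6 of the 26 complement genes, C1qb, C1qc, C1ra, Cd59a, Cfp and Fcna. TTGCNNAA, a form of the site of the C/EBP factors of hepatocytes, stood in 10.8% of all windows and in 4 complement genes, C1ra, C1s1, C3 and C9. TTCNNNGAA, the STAT site, stood in 8.3% of all windows and in 6 complement genes, C1ra, C7, C8a, Colec11, Masp2 and Vtn. The circadian motifs CACGTG and TTATGTAA stood in 7.15% and 0.938% of all windows and in 0 of the 26 complement genes. These matches are descriptions of the letters only.

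Stretches of 100 bases are shown for 2 macrophage-made genes, 2 hepatocyte-made genes and Colec11, whose mRNA fell in the evening with treatment, 5′ to 3′ on the strand of the gene, with the motif in capitals. They are GAGGAA in C1qb (chr4:136886201-136886300, minus strand, bases 100 to 1 before the start) and in Fcna (chr2:25628125-25628224, minus strand, bases 250 to 151 before the start), TTGCNNAA in C3 (chr17:57228137-57228236, minus strand, bases 100 to 1 before the start), and TTCNNNGAA in Masp2 (chr4:148602444-148602543, plus strand, bases 100 to 1 before the start) and in Colec11 (chr12:28623481-28623580, minus strand, bases 250 to 151 before the start).
C1qb: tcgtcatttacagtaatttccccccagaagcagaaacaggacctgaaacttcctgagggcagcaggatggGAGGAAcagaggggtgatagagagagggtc
Fcna: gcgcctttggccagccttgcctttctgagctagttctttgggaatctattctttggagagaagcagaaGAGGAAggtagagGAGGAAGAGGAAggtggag
C3: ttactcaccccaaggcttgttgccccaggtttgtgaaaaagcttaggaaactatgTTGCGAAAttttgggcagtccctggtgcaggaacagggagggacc
Masp2: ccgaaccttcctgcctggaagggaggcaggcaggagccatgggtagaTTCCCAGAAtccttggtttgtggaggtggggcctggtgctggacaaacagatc
Colec11: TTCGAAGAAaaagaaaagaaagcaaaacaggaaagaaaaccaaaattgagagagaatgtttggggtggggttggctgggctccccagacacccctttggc

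Hepatocyte-made genes were in the median far higher than macrophage-made genes. The hepatocyte-made genes had a median of 280.0 FPKM (mean over the 12 mice per gene, range 12.4 to 2393), and 18 of the 22 reached 100 FPKM. The 3 highest were vitronectin (Vtn, 2393 FPKM), the central component C3 (1328 FPKM) and clusterin (Clu, 1267 FPKM), which ranked 37th, 61st and 68th in the whole table. The macrophage-made genes had a median of 12.2 FPKM, with ficolin A (Fcna) highest at 14.2 FPKM, and none of them reached 100 FPKM. Of the other genes, the membrane inhibitor Cd59a had 27.0 FPKM, the lectin Colec11 17.4 FPKM and Cfd 10.6 FPKM. The 4 genes with a mean under 1 FPKM were not tested: the terminal component C7 (0.0586 FPKM), the anaphylatoxin receptors C5ar1 (0.110 FPKM) and C3ar1 (0.132 FPKM), and the membrane cofactor Cd46 (0.144 FPKM). The other 31 genes were tested, and their sum with those 4 made up 1.34% to 1.63% of all FPKM in a library.

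**Figure D1:**
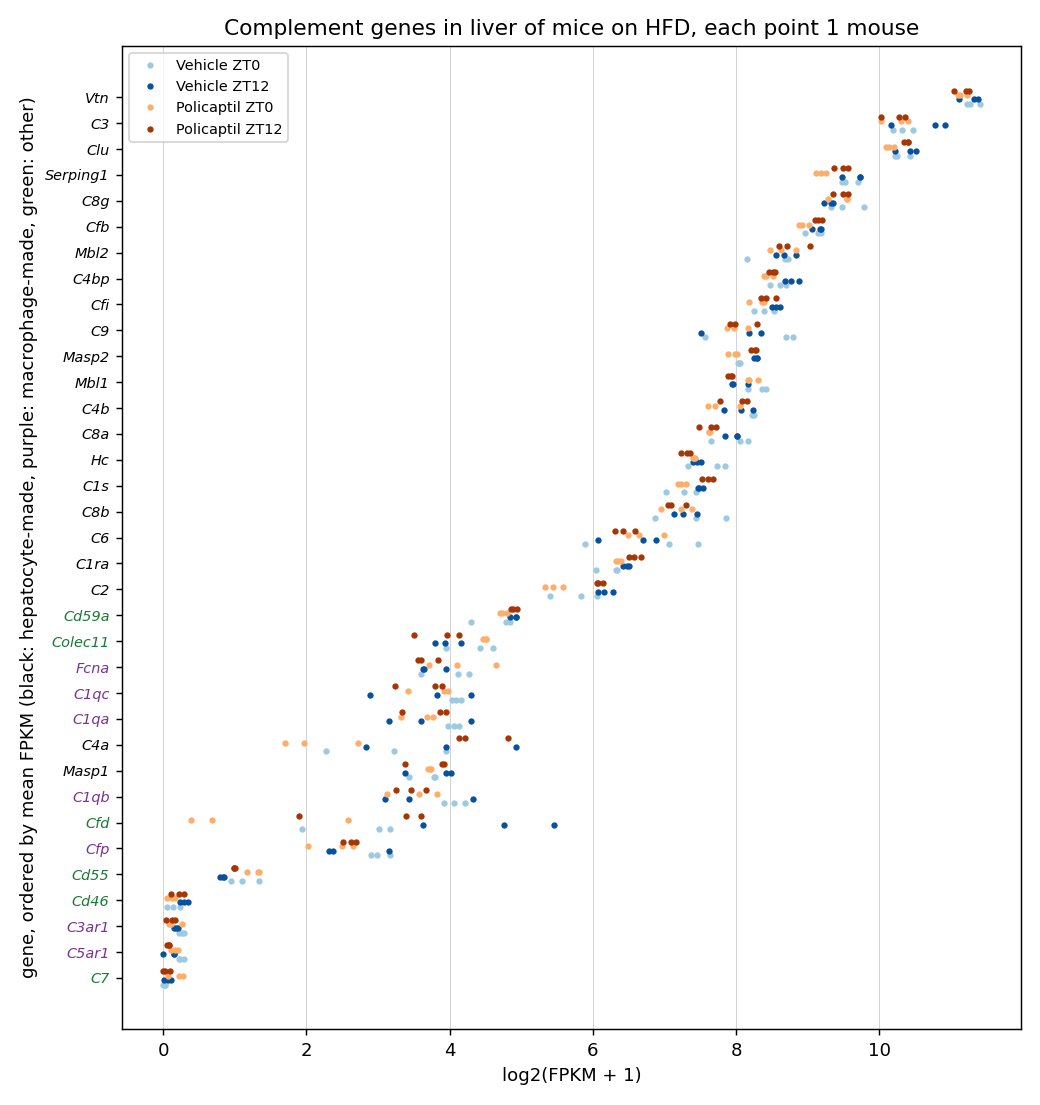
Levels of the 35 complement genes, as log2(FPKM + 1) on the horizontal axis, with genes in rows ordered by mean FPKM and each point 1 mouse, coloured by group. Vtn, C3 and Clu lie above 1000 FPKM in mean, the macrophage-made genes (purple names) lie at means of at most 14.2 FPKM, and C4a and Cfd show the widest spread between mice.

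Averaged over the 4 groups, the spread between mice of a group was in the median wider for macrophage-made genes, which also had the lower levels. Over the 4 groups the mean coefficient of variation was 2.59% to 52.2% for the hepatocyte-made genes, with a median of 8.01%, and 21.2% to 25.5% for the 5 macrophage-made genes tested, with a median of 22.5%. This order did not hold in every group. In vehicle mice at ZT0 the 5 macrophage-made genes varied by 5.01% (C1qc) to 24.3% (Fcna), in the median no wider than the hepatocyte-made genes. In vehicle mice at ZT12 they varied by 13.9% (Fcna) to 49.8% (C1qb). Masp2, a protease of the lectin pathway, was the steadiest at 2.59%, and Cfd and C4a were the most variable at 73.7% and 52.2%. Relative depth, read from the lowest nonzero values because the files give no read totals, ranged 0.712 to 1.27, and absolute depth is unknown. As a check of the time labels, 7 of 8 evening clock genes rose from ZT0 to ZT12 at adjusted p under 0.05 with either treatment. Of the 9 hepatocyte markers, Alb is listed at 0 in every library. The others summed to 30707 to 34189 FPKM in vehicle mice and 35424 to 43779 in treated mice at ZT0. At ZT12 the sums were 29469 to 33711 with vehicle and 33864 to 40739 with treatment. Most of each sum came from Apoa1 and Ttr, with means of 24802 and 7846 FPKM.

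From ZT0 to ZT12, C4a, C2 and C1s rose and Colec11 fell in mice given Policaptil Gel Retard, and in vehicle mice no complement gene passed the adjusted test. Expression changes were tested with limma on log2(FPKM + 1), with p-values adjusted over the 9806 genes tested, and a gene is called here at adjusted p under 0.05. With Policaptil Gel Retard 4 of the 31 complement genes (12.9%) were called, against 12.4% of all genes tested. Of all genes 7% rose and 5.36% fell in that comparison. With vehicle 0 of 31 were called, against 10.4% of all genes, while 4 complement genes had an unadjusted p under 0.05 (Cfd and Masp2 higher, Cd55 and Mbl1 lower). Of all genes 27.4% reached it, 14.4% higher and 13% lower. A version of the Cyber-T test called 1 complement gene with vehicle, Cfd, and 4 with Policaptil Gel Retard. These 4 did not include C1s (Cyber-T adjusted p = 0.173), so they are not the same 4 as in limma. The count with vehicle rose to 3 without vehicle mouse 1 at ZT12, and the count with Policaptil Gel Retard fell to 2 without treated mouse 1 or 3 at ZT0 or treated mouse 2 at ZT12.

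With Policaptil Gel Retard 12 of the 31 genes had an unadjusted p under 0.05 over time, against 29.2% of all genes. Of these, 9 were higher at ZT12 (C1ra, C1s, C2, C4a, Cfb, Cfd, Clu, Masp2 and Serping1), against 15.7% of all genes, and 3 lower (Cd55, Colec11 and Mbl1), against 13.4%. The groups did not overlap for 13 genes with Policaptil Gel Retard, against 34.9% of all genes, and for 6 with vehicle, against 33.2% of all genes. The median change over time of the 22 hepatocyte-made genes was 0.10 (log2) with Policaptil Gel Retard and 0.09 with vehicle, and that of the 5 macrophage-made genes was -0.05 and -0.40, beside 0.01 over all genes in both. A difference between treatments in the change over time was not shown for any of them: 0 of the 31 were called in limma's interaction test, as were 0 of all 9806 genes, and 0 of the 31 had an unadjusted p under 0.05, against 6.63% of all genes. The calls in treated mice alone therefore do not show that the treatments differed.

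Between treatments no complement gene was called at either time, and neither was any other gene at ZT0 or ZT12 (0% of the 9806 genes in limma). At ZT0 the levels of 24 of the 31 complement genes were lower with Policaptil Gel Retard in fitted log2 change and those of 7 higher, with a median of -0.15 against -0.02 over all genes. Of all genes, 45% were higher with treatment at ZT0. An unadjusted p under 0.05 was reached at ZT0 by 6 of 31 genes, all lower (C1qa, C1qb, Cfp, C4b, Serping1 and Cfd), against 9.23% of all genes in either direction and 5.81% lower. The groups did not overlap at ZT0 for 10 genes, all lower with treatment, against 15.1% of all genes in either direction and 9.94% lower. At ZT12 the unadjusted p was under 0.05 for 3 of 31 (C4bp, C8a and Cfd, all lower), against 6.74% of all genes and 3.67% lower. The groups did not overlap there for 6 genes, against 13.1% of all genes. Of the 6, C4bp, C8a, Cfd and Hc were lower with treatment, and C8g and Cd55 were higher. The median change of the 31 genes at ZT12 was -0.05, against -0.01 over all genes. The Cyber-T version called 0 complement genes at ZT0 and 1 at ZT12, Cfd. Over both times together 0 of 31 were called in limma, against 0.0204% of all genes. There 7 had an unadjusted p under 0.05, against 10.1% of all genes. Of these, C4b, C4bp, C8a, Cfd, Hc and Serping1 were lower (6.28% of all genes) and Cd55 higher (3.82%).

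**Figure D2:**
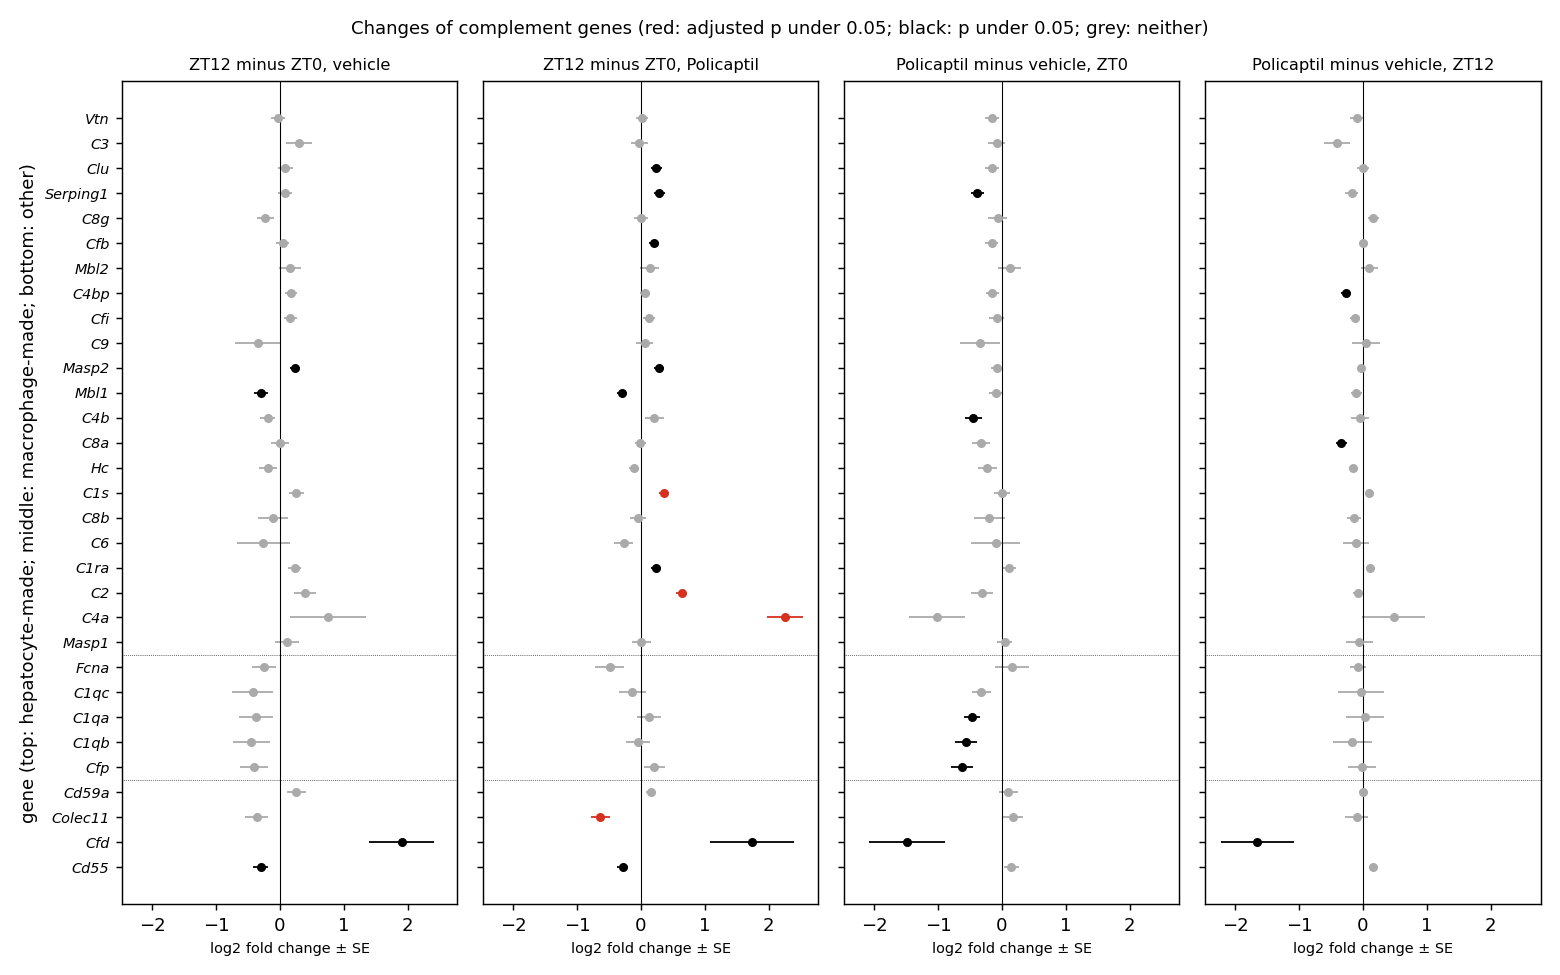
Log2 fold changes ± SE of the 31 tested complement genes in the 4 pairwise comparisons (panels), with genes in rows grouped as hepatocyte-made, macrophage-made and other. Red points (adjusted p under 0.05) occur only in the panel of time with Policaptil Gel Retard, at C4a, C2, C1s and Colec11, and the black points (unadjusted p under 0.05) of both treatment panels all lie left of 0.

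Of the classical pathway, the recognition protein C1q is built from 3 chains encoded by C1qa, C1qb and C1qc, neighbours on chromosome 4, and these were lower at ZT0 with Policaptil Gel Retard than with vehicle. C1qa was at 16.5, 15.7 and 14.8 FPKM in vehicle mice at ZT0 and 18.7, 11.1 and 7.94 at ZT12. In treated mice C1qa was at 11.9, 12.6 and 8.98 FPKM at ZT0 and 13.5, 14.5 and 9.05 at ZT12. These C1qa values overlapped between treatments at ZT12 and not at ZT0. C1qb was at 17.6, 15.6 and 14.2 FPKM in vehicle mice at ZT0 and 19.0, 9.82 and 7.60 at ZT12, and in treated mice 13.1, 10.9 and 7.76 at ZT0 and 9.998, 11.7 and 8.503 at ZT12. At ZT0 every treated mouse was below every vehicle mouse for C1qa, C1qb and C1qc, and at ZT12 the groups overlapped, with vehicle mice ranging from the highest to the lowest values measured. The log2 difference at ZT0 was -0.47 ± 0.131 (SE) for C1qa, -0.56 ± 0.179 for C1qb and -0.32 ± 0.154 for C1qc. The limma adjusted p was 0.459, 0.482 and 0.606, so none was called. At ZT12 the differences were 0.03 ± 0.299, -0.16 ± 0.299 and -0.03 ± 0.356, and the interaction of C1qa was 0.50 ± 0.354 (limma adjusted p = 0.852).

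The C1q chains were close to each other in level, and their sum followed the sum of macrophage markers within each group. Over the 12 mice the ratio of C1qa to C1qc was 0.840 to 1.24 and that of C1qb to C1qc 0.734 to 1.18. The summed FPKM of the 3 chains ranged 44.4 to 51.0 in vehicle mice at ZT0, 22.0 to 56.3 in vehicle mice at ZT12, 26.5 to 39.2 in treated mice at ZT0 and 26.0 to 40.1 in treated mice at ZT12. The summed FPKM of 9 macrophage and Kupffer cell markers (Adgre1, Clec4f, Cd5l, Cd68, Csf1r, Marco, Timd4, Lyz2 and Mpeg1) ranged 53.5 to 57.1, 27.7 to 58.6, 30.7 to 50.9 and 32.8 to 50.1 in the same order. None of the 9 was at 0 in every library. Within each of the 4 groups the mice had the same order by both sums, and the C1q sum was 0.771 to 0.961 times the marker sum. Single markers did not all keep this order. In vehicle mice at ZT0 Adgre1, Clec4f, Csf1r and Mpeg1 departed from it, and the other markers kept it. Of the 6 markers tested, Cd68, Clec4f and Mpeg1 were lower at ZT0 with treatment at an unadjusted p under 0.05, against 5.81% of all genes. None of the 6 was called. In log2 change 5 of them were lower and 1, Lyz2, was not (0.005 ± 0.149, SE), and the median of the 6 was -0.48. In RNA of whole liver, fewer macrophages and less C1q mRNA per macrophage cannot be told apart.

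**Figure D3:**
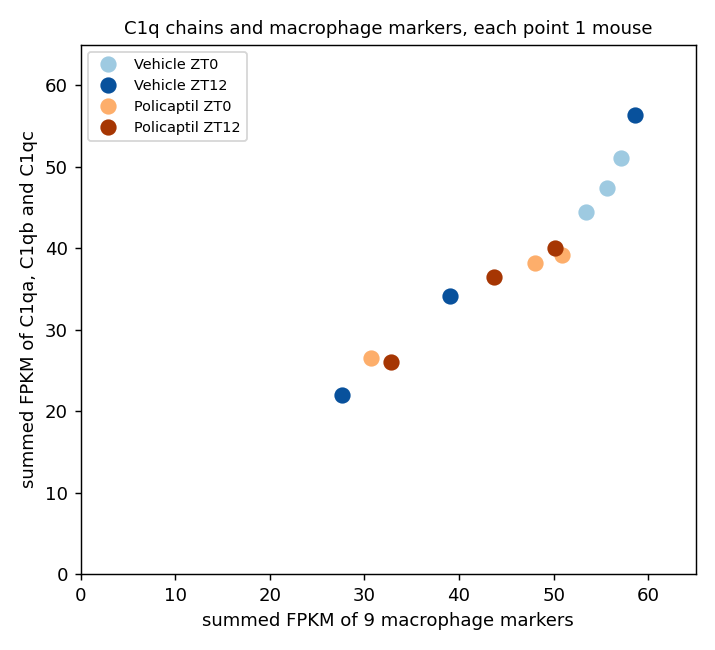
Summed FPKM of C1qa, C1qb and C1qc (vertical axis) against the summed FPKM of 9 macrophage markers (horizontal axis), each point 1 mouse, coloured by group. The C1q sums run from 22.0 to 56.3 FPKM together with the marker sums from 27.7 to 58.6 FPKM, and the 3 vehicle mice at ZT0 lie together near the upper end.

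The other macrophage-made genes did not all follow C1q. Properdin (Cfp), which stabilises the alternative pathway convertase, was at 6.92, 7.98 and 6.49 FPKM in vehicle mice at ZT0 and 7.87, 4.19 and 4.01 at ZT12. Treated mice had 5.29, 4.66 and 3.06 FPKM at ZT0 and 5.48, 5.15 and 4.68 at ZT12. At ZT0 its groups did not overlap and the difference was -0.63 ± 0.170 (log2, SE; limma adjusted p = 0.450), while at ZT12 it was -0.01 ± 0.218. Ficolin A (Fcna), a recognition protein of the lectin pathway, was at 10.8 to 24.1 FPKM over the 12 mice, with overlapping groups at ZT0 and a difference of 0.16 ± 0.265. The receptors C3ar1 and C5ar1 stayed at or below 0.223 and 0.228 FPKM in every mouse.

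The proteases of C1, made by hepatocytes, were higher in the evening. C1s (ENSMUSG00000038521.17, chr6:124530345-124542359, minus strand, GRCm38) was at 129, 153 and 173 FPKM in vehicle mice at ZT0 and 186, 176 and 178 at ZT12. In treated mice C1s was at 145, 157 and 149 at ZT0 and 203, 182 and 194 at ZT12. C1ra was at 65.2, 79.2 and 80.0 FPKM in vehicle mice at ZT0 and 89.9, 85.1 and 88.0 at ZT12, and in treated mice 82.7, 78.8 and 81.1 FPKM at ZT0 and 101.3, 89.7 and 94.7 at ZT12. The ZT12 mice were above the ZT0 mice without overlap for both genes and with both treatments. With Policaptil Gel Retard C1s rose by 0.36 ± 0.0801 (log2, SE; limma adjusted p = 0.0309), and with vehicle the difference was 0.25 ± 0.118 (adjusted p = 0.219). The call of C1s was lost when any 1 of the 6 mice was left out, at adjusted p from 0.0508 to 0.0943. C1ra differed by 0.23 ± 0.0780 with Policaptil Gel Retard and 0.23 ± 0.101 with vehicle, and was called in neither (limma adjusted p = 0.0983 and 0.193). The ratio of C1s to C1ra stayed between 1.75 and 2.17 in all 12 mice. An antisense gene, Gm16567, overlaps C1s, and both proteases have a near copy in the genome (C1s2 and C1rb), so that their values depend on how reads were assigned.

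C2 and C4a, which lie in the major histocompatibility complex on chromosome 17, rose from ZT0 to ZT12 with Policaptil Gel Retard. C2 (ENSMUSG00000024371.14, chr17:34862604-34898265, minus strand), the serine protease of the classical and lectin C3 convertase, was at 41.3, 66.0 and 56.2 FPKM in vehicle mice at ZT0 and 76.7, 70.0 and 66.0 at ZT12. Treated mice had 47.1, 42.4 and 39.4 at ZT0 and 65.8, 66.5 and 69.6 at ZT12. With treatment all ZT12 mice were above all ZT0 mice, by 0.64 ± 0.0880 (log2, SE; limma adjusted p = 0.00697), from 43.0 ± 3.90 FPKM to 67.3 ± 1.99 FPKM (SD, n = 3). With vehicle the highest ZT0 mouse and the lowest ZT12 mouse were nearly equal, and the change was 0.40 ± 0.169 (limma adjusted p = 0.187). C2 kept its call without each of the 6 treated mice in turn, at adjusted p from 0.0132 to 0.0327. Its locus shares bases with the same-strand readthrough gene Gm20547 and with Zbtb12 on the other strand.

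C4a (ENSMUSG00000015451.16, chr17:34809092-34823464, minus strand), a near copy of the C4b gene known in mouse as sex-limited protein, was at 3.86, 14.5 and 8.32 FPKM in vehicle mice at ZT0 and 29.5, 14.4 and 6.11 at ZT12. In treated mice C4a was at 5.62, 2.93 and 2.26 FPKM at ZT0 and 16.6, 17.6 and 27.1 at ZT12. In treated mice the groups were well apart, at 3.60 ± 1.78 FPKM and 20.4 ± 5.79 FPKM (SD, n = 3), while the vehicle mice spread from 3.86 to 14.5 FPKM at ZT0 and from 6.11 to 29.5 at ZT12. C4a rose over time by 2.25 ± 0.287 (log2, SE; limma adjusted p = 0.00524) with Policaptil Gel Retard, and the change with vehicle was 0.75 ± 0.596 (adjusted p = 0.467). C4a kept its call without each of the 6 treated mice in turn, at adjusted p from 0.00530 to 0.0252. The difference between these changes was 1.502 ± 0.731 (limma adjusted p = 0.755). At ZT0 the treated mice differed from vehicle by -1.02 ± 0.435 (limma adjusted p = 0.545), with overlapping groups.

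C4b, the main C4 gene, did not share this pattern. C4b was at 301, 303 and 298 FPKM in vehicle mice at ZT0 and 227, 268 and 300.1 at ZT12, and in treated mice 195, 266 and 207 at ZT0 and 272, 282 and 218 at ZT12. At ZT0 its 3 vehicle mice, with a coefficient of variation of 0.916%, lay above all treated mice, a difference of -0.44 ± 0.132 (log2, SE; limma adjusted p = 0.469). At ZT12 the groups overlapped and the difference was -0.04 ± 0.138. The ratio of C4b to C4a ranged from 7.68 to 91.6 over the 12 mice. The copies are alike, and the share of reads assigned to C4a and to C4b is uncertain.

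**Figure D4:**
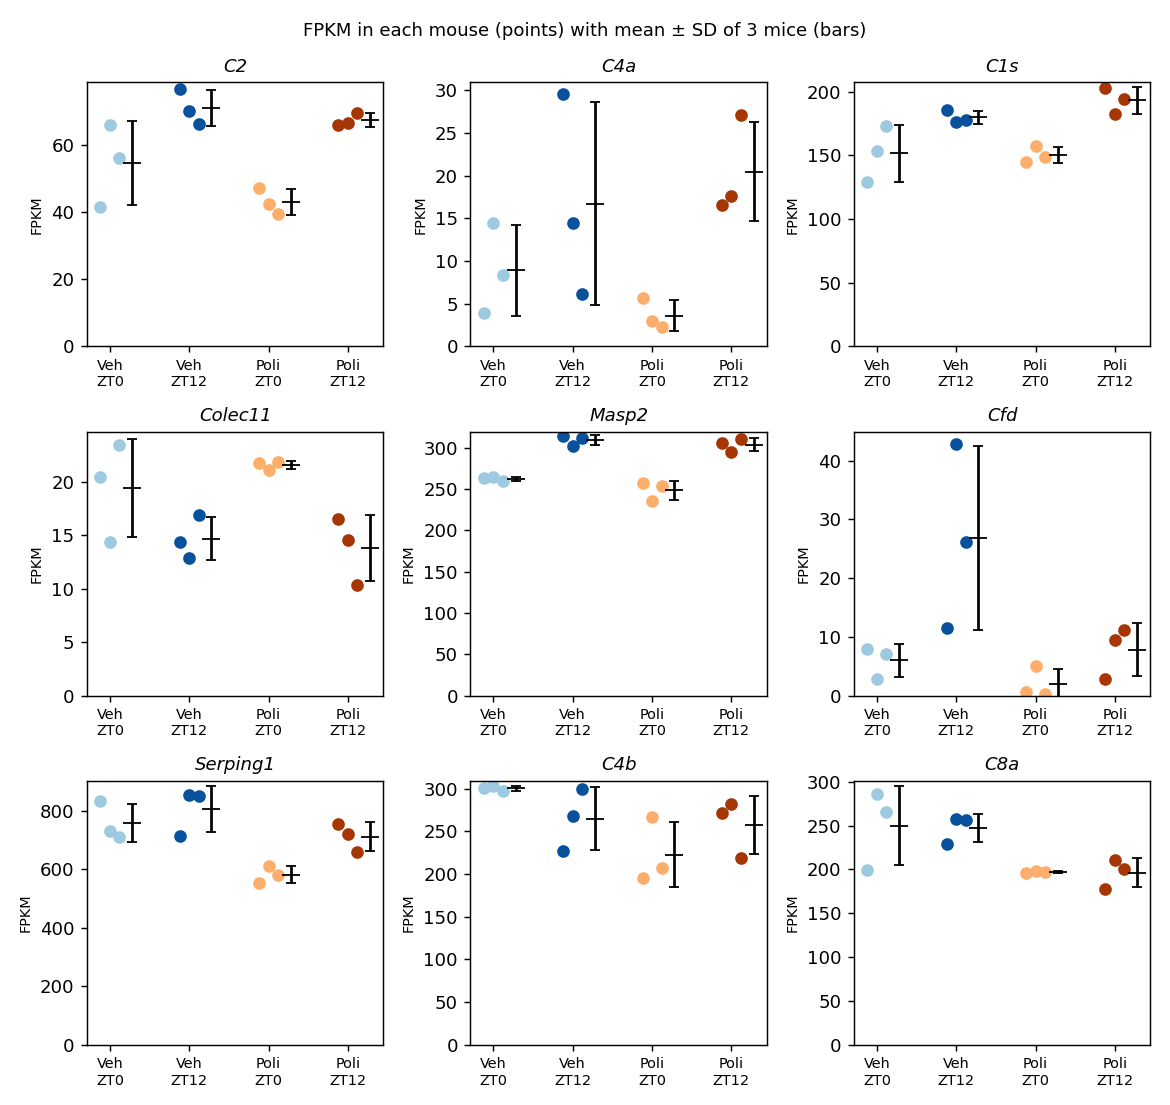
FPKM of 9 complement genes in each mouse (points) with the mean ± SD of the 3 mice of a group (bars, cut at 0 where the SD reaches below it), on linear axes from 0. C2, C4a and C1s lie higher and Colec11 lower at ZT12 than at ZT0 in the treated mice, Masp2 is higher at ZT12 in both treatments, Serping1 and C4b lie lower with treatment at ZT0, and C8a and Cfd at ZT12.

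In the lectin pathway, the evening fall of Colec11 was the only called change. Colec11 (collectin 11; ENSMUSG00000036655.8, chr12:28594173-28623377, minus strand), a soluble lectin that binds sugars on microbes, was at 20.5, 14.4 and 23.4 FPKM in vehicle mice at ZT0 and 14.4, 12.8 and 16.9 at ZT12. Treated mice had 21.8, 21.1 and 21.8 FPKM at ZT0 and 16.5, 14.6 and 10.4 at ZT12. In treated mice all ZT12 values were below all ZT0 values, a change of -0.63 ± 0.155 (log2, SE; limma adjusted p = 0.0421). In vehicle mice the groups overlapped and the change was -0.36 ± 0.185 (adjusted p = 0.257). The call was lost without treated mouse 1, 2 or 3 at ZT0 (limma adjusted p = 0.105, 0.09998 and 0.112) or treated mouse 2 at ZT12 (0.0907). The sum of 6 stellate cell and fibroblast markers, none of them at 0 in every library, ranged 49.7 to 67.1 FPKM in treated mice at ZT0, 24.5 to 43.2 in treated mice at ZT12, 32.6 to 59.9 in vehicle mice at ZT0 and 30.0 to 46.7 in vehicle mice at ZT12. Of these, 5 were tested, and Col3a1, Des and Reln fell in treated mice over time at adjusted p under 0.05, against 5.36% of all genes. With vehicle all 5 were also lower at ZT12, with a median of -0.25 (log2), and 0 were called. In the interaction test 0 of the 5 were called. Their part in the fall of Colec11 was not tested.

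The mannose-binding lectins and MASP proteases, made by hepatocytes, had no called change with treatment. Masp2, which cuts C4 and C2, was at 263, 265 and 259.7 FPKM in vehicle mice at ZT0 and 314, 302 and 312 at ZT12. In treated mice Masp2 was at 257, 235 and 253 at ZT0 and 306, 295 and 310.5 at ZT12. Every ZT12 mouse was above every ZT0 mouse, by 0.24 ± 0.0728 with vehicle and 0.29 ± 0.0771 with Policaptil Gel Retard (log2, SE), at limma adjusted p = 0.0899 and 0.0531, so it was not called. The oppositely oriented gene Tardbp overlaps Masp2. Mbl1 was at 285, 341 and 328 FPKM in vehicle mice at ZT0 and 286, 244 and 247 at ZT12, and in treated mice 288, 286 and 317 FPKM at ZT0 and 245, 242 and 237 at ZT12. Its log2 change to ZT12 was -0.29 ± 0.109 and -0.30 ± 0.0787 (SE; limma adjusted p = 0.135 with vehicle and 0.0522 with treatment). The times overlapped in vehicle mice and not in treated mice. Mbl2, the other mannose-binding lectin, was at 423, 284 and 410.4 FPKM in vehicle mice at ZT0 and 375, 457 and 405 at ZT12. Treated mice had 353, 396 and 456 at ZT0 and 524, 420.1 and 387 at ZT12, with all groups overlapping. Masp1 stayed between 9.42 and 15.2 FPKM, and Masp2 was 19.0 to 33.3 times as high in every mouse.

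C3, the component on which all pathways converge, was at 1412, 1279 and 1166 FPKM in vehicle mice at ZT0 and 1143, 1752 and 1942 at ZT12. In treated mice C3 was at 1044, 1258 and 1351 FPKM at ZT0 and 1235, 1312 and 1038 at ZT12. The 2 highest values were vehicle mice at ZT12, and the groups overlapped in every comparison. The difference with treatment was -0.08 ± 0.137 at ZT0 and -0.40 ± 0.205 at ZT12 (log2, SE; limma adjusted p = 0.885 and 0.729). Factor B (Cfb), the protease of the alternative C3 convertase, was at 499, 566 and 581 FPKM in vehicle mice at ZT0 and 532, 579 and 584 at ZT12, and in treated mice 484, 471 and 516 at ZT0 and 589, 566 and 549 at ZT12. In treated mice it was higher at ZT12 without overlap, by 0.21 ± 0.0804 (limma adjusted p = 0.133), and in vehicle mice by 0.04 ± 0.0964 (adjusted p = 0.815). Like C2, Cfb shares bases with Gm20547.

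Factor D (Cfd; ENSMUSG00000061780.6, chr10:79890853-79892655, plus strand), the protease that activates factor B, had the largest treatment differences of the 31 genes, and also the widest spread. Cfd was at 7.97, 2.85 and 7.10 FPKM in vehicle mice at ZT0 and 11.4, 42.8 and 26.1 at ZT12. Treated mice had 0.613, 4.99 and 0.309 FPKM at ZT0 and 2.74, 9.47 and 11.2 at ZT12. Values were higher at ZT12 than at ZT0 without overlap in vehicle mice, by 1.91 ± 0.503 (log2, SE; limma adjusted p = 0.0598), and with overlap in treated mice, by 1.75 ± 0.655 (adjusted p = 0.130). The treated mice differed from vehicle by -1.49 ± 0.594 at ZT0, with overlap, and -1.65 ± 0.576 at ZT12, without overlap (limma adjusted p = 0.532 and 0.729). Over both times the difference was -1.57 ± 0.443 (limma adjusted p = 0.336). Leaving out vehicle mouse 1 at ZT12 gave a called change over time with vehicle (log2 2.40, limma adjusted p = 0.0352), and leaving out treated mouse 2 at ZT0 gave one with treatment (log2 2.43, adjusted p = 0.0462). Of the adipocyte markers, Lep and Retn were at 0 in all 12 libraries and Adipoq and Plin1 were at most 0.0492 and 0.0381 FPKM. Plin4, a lipid droplet gene that fat-laden hepatocytes also express, ranged 0.540 to 10.2 FPKM. The sum of the 5 markers, nearly all of it Plin4, was 1.19 to 2.56 FPKM in vehicle mice at ZT0, 3.58 to 10.2 in vehicle mice at ZT12, 0.582 to 1.10 in treated mice at ZT0 and 1.72 to 7.94 in treated mice at ZT12.

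Of the terminal pathway, no gene tested had a called change in any comparison, and C8a lay lower in treated mice at both times. C8a, one of 3 chains of C8, was at 199, 286 and 265 FPKM in vehicle mice at ZT0 and 229, 257 and 256 at ZT12. In treated mice C8a was at 196, 198 and 197 at ZT0 and 178, 211 and 200.4 at ZT12. At ZT12 no treated mouse reached the lowest vehicle mouse, a difference of -0.33 ± 0.0904 (log2, SE; limma adjusted p = 0.729). At ZT0 the difference was -0.32 ± 0.143 (limma adjusted p = 0.556), the lowest vehicle mouse lying just above the highest treated mouse. Over both times it was -0.33 ± 0.0837 (limma adjusted p = 0.303), and change over time was 0.00 with vehicle and -0.01 with treatment. C8g, the small chain of C8 and a lipocalin, was at 883, 638 and 711 FPKM in vehicle mice at ZT0 and 650.4, 644 and 598 at ZT12, and in treated mice 748, 625 and 749 FPKM at ZT0 and 754, 653 and 718 at ZT12. At ZT12 C8g was higher with treatment without overlap, by 0.17 ± 0.0831 (log2, SE; limma adjusted p = 0.729), and at ZT0 its groups overlapped. C8g had 2.23 to 4.43 times the FPKM of C8a in each mouse. Oppositely oriented genes overlap C8a (Gm17662), C8g (Fbxw5) and Hc (Gm13449). C9, the pore-forming unit, was at 189, 443 and 414 FPKM in vehicle mice at ZT0 and 325, 289.6 and 181 at ZT12. Treated mice had 285, 235 and 251 at ZT0 and 240.5, 253 and 314 at ZT12. Among vehicle mice the 2 lowest values of C9, C6 and C8b came from mouse 1 at ZT0 and mouse 3 at ZT12, and the highest of each from mouse 2 at ZT0. C6 ranged 58.3 to 176 FPKM, C8b 116 to 231 FPKM and Hc 149.6 to 229 FPKM over all 12 mice. Hc did not overlap between treatments at ZT12, where the treated mice were lower, and its difference over both times was -0.19 ± 0.0791 (limma adjusted p = 0.470).

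The soluble regulators, all hepatocyte-made, included the C1 inhibitor Serping1, which was lower in treated mice at ZT0. Serping1, which blocks C1r, C1s and the MASPs, was at 833, 731 and 711 FPKM in vehicle mice at ZT0 and 713, 852 and 851 at ZT12. In treated mice Serping1 was at 552, 610.1 and 581 FPKM at ZT0 and 754, 721 and 659 at ZT12. At ZT0 its groups did not overlap and the difference was -0.38 ± 0.106 (log2, SE; limma adjusted p = 0.459), while at ZT12 it was -0.18 ± 0.1004 with overlap. Over both times the difference was -0.28 ± 0.0734 (limma adjusted p = 0.313). C4bp, which dissolves the C4-containing convertase, was at 356, 392 and 412 FPKM in vehicle mice at ZT0 and 410.1, 433 and 469 at ZT12, and in treated mice 342, 365 and 336 at ZT0 and 352, 373 and 367 at ZT12. It was lower with treatment at ZT12 without overlap, at a difference of -0.26 ± 0.0761 (limma adjusted p = 0.729), and at ZT0 the difference was -0.15 ± 0.0998. Vtn, which keeps the terminal complex from inserting into membranes, was at 2706, 2400.2 and 2455 FPKM in vehicle mice at ZT0 and 2207, 2562 and 2653 at ZT12. Treated mice had 2183, 2234 and 2389.7 FPKM at ZT0 and 2443, 2365 and 2119.5 at ZT12. Clu, with the same task, was at 1218, 1378 and 1189 FPKM in vehicle mice at ZT0 and 1193, 1457 and 1374 at ZT12. In treated mice Clu was at 1120.1, 1088 and 1179 at ZT0 and 1357, 1295 and 1356 at ZT12. Both lay lower in every treated mouse than in every vehicle mouse at ZT0, by margins under the spread within groups, and had no unadjusted p under 0.05 there. Factor I (Cfi), which cuts C3b and C4b, ranged 289.5 to 391 FPKM, with overlapping treatments.

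Of the membrane regulators, the inhibitor of the membrane attack complex Cd59a was at 27.6, 18.7 and 26.6 FPKM in vehicle mice at ZT0 and 27.6, 29.4 and 29.5 at ZT12, and in treated mice 25.6, 25.1 and 26.8 FPKM at ZT0 and 28.1, 29.9 and 28.5 at ZT12. Cd55, which speeds the decay of convertases, was at 1.15, 1.53 and 0.925 FPKM in vehicle mice at ZT0 and 0.805, 0.790 and 0.738 at ZT12. Treated mice had 1.25, 1.499 and 1.53 at ZT0 and 0.987, 1.01 and 0.984 at ZT12. Its change to ZT12 was -0.30 ± 0.118 with vehicle and -0.28 ± 0.0859 with treatment (log2, SE; limma adjusted p = 0.158 and 0.0750), without overlap in both. Over both times it was higher with treatment by 0.16 ± 0.0701 (limma adjusted p = 0.478). At about 1 FPKM this change is understated by the pseudocount of 1 FPKM. Cd46 was at 0.177, 0.106 and 0.0399 FPKM in vehicle mice at ZT0 and 0.179, 0.223 and 0.273 at ZT12. In treated mice Cd46 was at 0.121, 0.0933 and 0.0402 FPKM at ZT0 and 0.0796, 0.228 and 0.168 at ZT12, under the minimum for a test.

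Of 25 other complement genes listed (related proteases, pentraxins, further regulators and receptors), 24 had a row and 13 were tested. In treated mice 1 of the 13 was called over time, the collectin Colec10, against 12.4% of all genes called there and 5.36% lower. Colec10 fell by 0.67 on the log2 scale (SE 0.152, limma adjusted p = 0.0318). With vehicle its change was -0.35 (SE 0.116, limma adjusted p = 0.106), without overlap of the times. Its interaction of treatment and time was not called (limma adjusted p = 0.829). No other call was made in any of the 6 limma comparisons among the 13. At ZT0, 7 of the 13 were higher with treatment and 6 lower, with a median of 0.003 (log2). An unadjusted p under 0.05 was reached there by 4, all lower, against 9.23% of all genes in either direction and 5.81% lower. These 4 included Cpb2 (-0.45), a carboxypeptidase that inactivates anaphylatoxins, Apcs (-0.88), a pentraxin, and Vsig4 (-0.51), the Kupffer cell receptor for C3b. Of 14 acute phase genes tested, 11 were lower with treatment at ZT0 at an unadjusted p under 0.05, against 5.81% of all genes. None of the 14 was called there, and their median was -0.67. The summed FPKM of the acute phase genes was 30885 to 43704 in vehicle mice and 17909 to 22666 in treated mice at ZT0, and 20655 to 49269 and 17666 to 39049 at ZT12. C3 and Serping1 are themselves known to rise in the acute phase. At ZT0 C3 overlapped between treatments (-0.08 ± 0.137, log2, SE), and Serping1 was lower with treatment (-0.38 ± 0.106). The part of the acute phase response in the lower values of complement genes at ZT0 was not tested.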

How the data were processed

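Single-end RNA-seq libraries of whole liver from 12 mice were analysed, grouped by the sample labels. The labels give TruSeq RNA v2 as the kit, whereas the methods speak of stranded mRNA libraries. Reads were aligned by the authors to mm10 (GRCm38), and the values deposited are FPKM for each gene and sample. The methods name ELAND, with reads that lacked a unique best place dropped, and RPKM, while the submitters' processing notes name TopHat and Cuffnorm. Which of these made the FPKM, and so whether that filter applies to them, is not settled. Of 24138 lines, 289 repeated a symbol, of which only the highest in mean was used.

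Values were tested as log2(FPKM + 1), two-sided, for the 9806 symbols with a mean of at least 1 FPKM, with limma 3.58.1 in R 4.3.3 (lmFit, eBayes with trend), and p-values were adjusted by Benjamini-Hochberg over all of them. For low genes this scale makes fold changes smaller than they are. Pairwise comparisons used 6 libraries, and the interaction and the treatment effect over both times used 12. The calculations were tested on simulated data. The labels do not say whether the 3 samples of a group are separate experiments, so p-values measure the spread between these samples. Counts were not used here, so no counting error is given.

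The genes, lists and source classes were chosen with earlier results of these data known. Values in every mouse are given for genes called in any comparison, for genes with an unadjusted p under 0.05 and groups that did not overlap in a treatment comparison, and for the 3 highest genes of each role. A gene of the list of other complement genes is not reported here. Coordinates are from GENCODE vM21. Alternatives were a pseudocount of 0.1 FPKM, no minimum and a minimum of 5 FPKM, no trend, median-ratio and quantile scaling, 1 fit of 12 libraries, a replicate block, a Cyber-T version (window 101 genes, prior weight 10), and leaving out each library.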

Additional observations from a re-analysis of the deposited data

How the results depend on the processing

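Of the 31 complement genes, 0 were called over time with vehicle in the main analysis, 1 with no minimum FPKM (Masp2), 1 in 1 fit over all 12 libraries (Masp2) and 1 with the Cyber-T version (Cfd), and leaving out each mouse gave 0 to 3. With Policaptil Gel Retard 4 were called, 6 each with a pseudocount of 0.1 FPKM, a minimum of 5 FPKM and median-ratio scaling, 5 in 1 fit over 12 libraries, 3 with no minimum, and 2 to 3 when each mouse was left out. The replicate number as a block gave 2 (C2 and C4a). These numbers did not pair the mice: correlations of same-numbered mice were -0.279 to 0.257, and 1 of 12 correlated best with its own number. At ZT12 between treatments the Cyber-T version gave 1 in place of 0 (Cfd, adjusted p = 0.0446). C4a and C2 kept their calls under all alternatives run, at adjusted p from 3.34e-08 to 0.0363 and from 0.000422 to 0.0327. C1s was also lost under quantile normalization (adjusted p = 0.103), the replicate block (0.0785) and Cyber-T (0.173), and Colec11 with no minimum (0.110) and the block (0.0671). Over time with treatment, Mbl1 and Masp2 each passed under 4 alternatives, at adjusted p of 0.0112 to 0.0488 and 0.0144 to 0.0491. The adjusted p of Cfd in that comparison ranged from 0.00292 to 0.301 over the alternatives. No direction reversed. The causes of these shifts were not tested. With 3 mice a group and no read counts, small differences in genes such as Cfd and C4a could not be resolved.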
